A study of Mus musculus and Homo sapiens with 10 samples.

Results

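The MYC and PVT1 interval of K562 cells was taken as every island of H3K122ac, H3K27ac or H3K4me1 that overlapped chr8:128700000-131000000 (hg19). An island is a stretch of joined windows enriched over a background library. The interval holds MYC (chr8:128748000-128754000), PVT1 (chr8:128806000-129114000) and 1.89 Mb downstream of PVT1, and it was chosen by position, not by signal. Both gene intervals are rounded to whole kb. It met 113 of 72662 H3K122ac islands, 302 of 173981 H3K27ac islands and 162 of 113669 H3K4me1 islands, which is 577 of 360312 islands in all. K562 is a human erythroleukaemia line, here undifferentiated, untreated and at passage 14. Its chromatin was cut with micrococcal nuclease and immunoprecipitated with an antibody to each mark, with 1 library per mark and an input library. The series also holds 6 mouse embryonic stem cell libraries, which were not used here. With no replicates there was no test between conditions. The intervals of folds cover counting error only, and those of medians and shares treat islands as independent draws. None covers variation between libraries.

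MYC encodes a transcription factor that drives growth and proliferation, and in leukaemia lines its transcription depends on enhancers far from the gene. PVT1 is a long noncoding RNA gene next to MYC, and its body is known to hold K562 enhancers that act on MYC. Others are known far downstream, near the noncoding gene CCDC26. H3K27ac marks active promoters and enhancers on the histone tail, H3K4me1 is typical of enhancers and sparse at the start of active genes, and H3K122ac lies in the globular domain where histone H3 contacts DNA. Enhancer activity itself was not measured, and islands were not assigned to genes other than MYC and PVT1, since no hg19 annotation was used here.

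Each island carries a ChIP read count, a background read count over the same bases, and the authors' fold, the ChIP count over the background count scaled by a library ratio fixed for each list (0.258 for H3K122ac, 0.688 for H3K27ac and 0.581 for H3K4me1). The lists held 18283729, 34195325 and 35562145 ChIP reads in islands. Background reads per kb of island in bins of 1 Mb, pooled over the 3 lists, had a median of 50.7. The bins at 23 to 24 Mb of chromosome 22 and 133 to 134 Mb of chromosome 9 stood at 4.31 and 2.59 times that median, at segments known to be amplified with BCR-ABL1 in K562. The bins of the MYC and PVT1 interval, from 128 to 131 Mb of chromosome 8, stood at 1.09 to 1.21 times it.

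Each of the 3 marks covered more of the interval than of the rest of chromosome 8. H3K122ac islands covered 19.3% of the interval, against 5.31% of the rest of chromosome 8 between its first and last island. H3K27ac covered 34.8% of the interval and 8.47% of the rest, and H3K4me1 41.0% and 10.4%. Islands numbered 49.1, 131.3 and 70.4 per Mb for H3K122ac, H3K27ac and H3K4me1, against 21.3, 49.4 and 34.1 on the rest of the chromosome. The background library was denser in the interval too, at 61.2 reads per kb of island for H3K122ac, 59.6 for H3K27ac and 56.0 for H3K4me1, against 52.1, 54.0 and 50.9 on the rest of chromosome 8. Their part in the density was not tested.

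**Figure D1:**
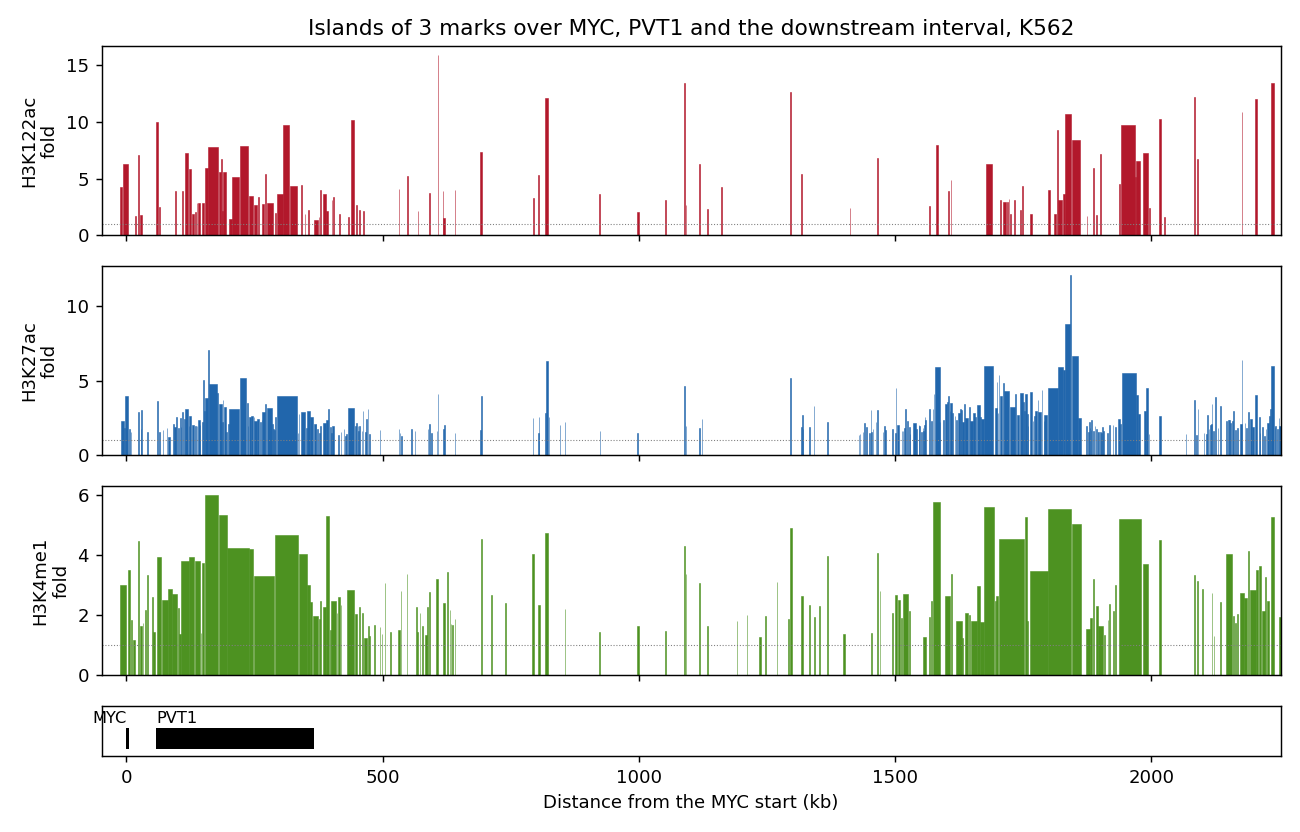
Islands of H3K122ac (top), H3K27ac (middle) and H3K4me1 (bottom) as bars spanning each island, with fold over background as height, against distance from the MYC start in kb. The dotted line is a fold of 1, and black bars give MYC and PVT1. Islands crowd over MYC and PVT1 and again from 1428.8 to 1997.0 kb, with few between.

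Median folds of the islands were not higher in the interval than in the lists, while folds of summed counts, in which long islands weigh more, were higher for H3K27ac and H3K4me1. The fold of summed counts was 5.6 in the interval and 6.77 in the list for H3K122ac, 3.18 and 2.74 for H3K27ac, and 3.53 and 3.14 for H3K4me1. The median H3K122ac fold was 3.87 in the interval (95% interval of the median 3.15 to 4.39, n = 113 islands) and 5.34 in the whole list. It was 2.25 (2.12 to 2.38, n = 302) and 2.27 for H3K27ac, and 2.42 (2.26 to 2.63, n = 162) and 2.72 for H3K4me1. A fold of 3 or more was reached by 72 of the 113 H3K122ac islands, 63.7% (exact 95% interval 54.1 to 72.6%), against 77.6% of the whole list. For H3K27ac it was 77 of 302, 25.5% (20.7 to 30.8%), against 27.9%, and for H3K4me1 51 of 162, 31.5% (24.4 to 39.2%), against 42.4%. By this share H3K27ac thus lay near its list, while H3K122ac and H3K4me1 held fewer islands of high fold than theirs. Islands were longer than in the whole lists, with medians of 2200 bp against 1800 bp for H3K122ac, 1600 against 1200 bp for H3K27ac and 2900 against 2000 bp for H3K4me1.

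The islands fell into a pair of long blocks. Regions of any mark no more than 10 kb apart were joined, which gave 27 clusters. The longest of these began 1428.8 kb downstream of the MYC start and ran for 568.2 kb (chr8:130176801-130745000). The next began 12.2 kb upstream of MYC and ran for 528.8 kb (chr8:128735801-129264600), through MYC, all of PVT1 and beyond. Together they held 83 of 113 H3K122ac islands, 220 of 302 H3K27ac islands and 96 of 162 H3K4me1 islands. They also held 83.2%, 89.0% and 87.6% of the reads above background of the interval, over 1097 kb of its 2.3 Mb. The blocks were drawn from these same islands, so these shares, and the sparse stretch between the blocks, follow in part from how they were drawn.

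**Figure D2:**
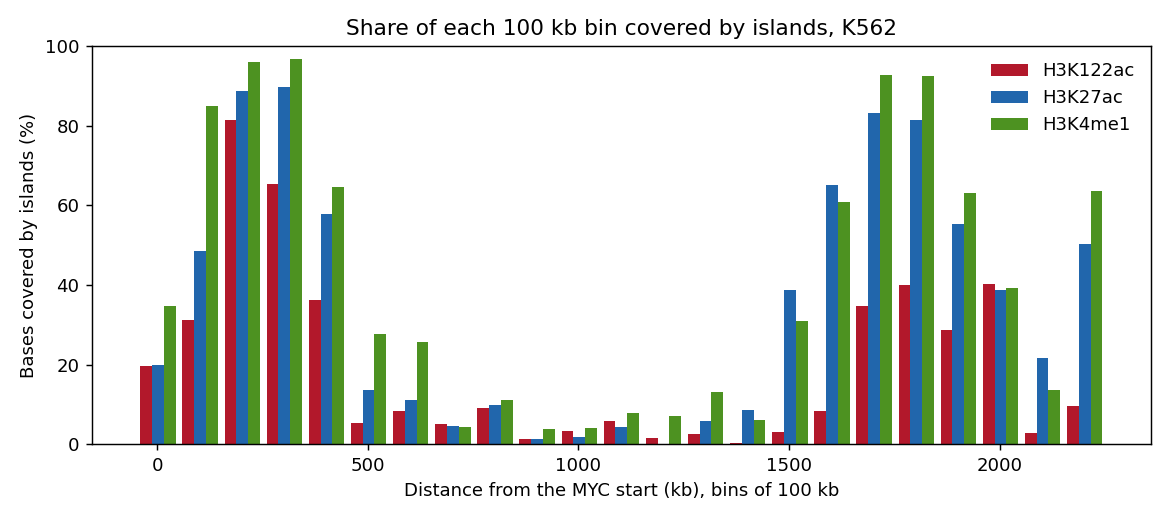
Percent of bases covered by islands of each mark in 23 bins of 100 kb, placed by distance from the MYC start in kb. Bars reach 81.4, 89.6 and 96.8% over PVT1, stay at or below 9.2% for H3K122ac in every bin from 452 to 1552 kb, and climb again beyond.

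The 912.2 kb between the blocks (chr8:129264601-130176800) were sparse but not empty. H3K122ac covered 4.39% of them, H3K27ac 4.91% and H3K4me1 9.80%, each less than on the rest of chromosome 8. The block over MYC and PVT1 was covered to 44.8%, 59.3% and 75.3%, and the distal block to 26.5%, 64.2% and 66.2%. H3K122ac was thus less extensive in the distal block than around PVT1, while H3K27ac was not. The longest stretch with no island of any mark was 72.6 kb (chr8:129672601-129745200). H3K27ac had none for 171.6 kb (chr8:129872201-130043800) and H3K122ac none for 133.0 kb, ending at the same base.

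At MYC itself, H3K122ac formed 1 island, chr8:128740801-128751200, which began 7.2 kb before the gene and ended 3.2 kb into it. It had 786 ChIP reads over 481 background reads, a fold of 6.33 (5.64 to 7.10), higher than 58.1% of the H3K122ac list. H3K27ac gave an island over the start of the gene, chr8:128745601-128751200, with 552 reads over 202 and a fold of 3.97 (3.38 to 4.69). This was higher than 85.3% of the H3K27ac list. A second, weak H3K27ac island, with 262 reads over 219 and a fold of 1.74 (1.45 to 2.09), covered the end of MYC.

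No H3K4me1 island covered the first 3 kb of MYC. One H3K4me1 island, with 1105 reads over 638 and a fold of 2.98 (2.70 to 3.29), ended at chr8:128748000, the rounded MYC start. The next, with 638 reads over 314 and a fold of 3.50 (3.05 to 4.02), began at chr8:128751001. H3K122ac and H3K27ac covered 100% of the 3000 bp between them. Both acetylations ended 200 bp inside the island in which H3K4me1 resumed.

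Around MYC, outside the gene and before PVT1, the islands with at least 100 reads had their highest folds at 1 place for all 3 marks, 22.8 to 25.6 kb after the MYC start. H3K122ac reached 7.11 there (226 reads over 123), H3K27ac 2.92 (237 over 118) and H3K4me1 4.46 (458 over 177). Next came islands upstream of MYC for both acetylations, at 4.29 for H3K122ac (205 over 185) and 2.28 and 1.80 for H3K27ac. For H3K4me1 the next was an island 40.4 kb after the MYC start, at 3.34 (184 over 95).

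PVT1 was covered more densely than MYC by each mark. H3K4me1 islands covered 92.6% of its 308 kb, H3K27ac 76.9% and H3K122ac 58.4%. H3K122ac had its highest fold of the gene at chr8:128806001-128809000, an island that began at the PVT1 start as rounded to whole kb. It held 329 reads over 127, with a fold of 10.0 (8.15 to 12.4). The next highest H3K122ac folds were 9.69 (8.87 to 10.6) at chr8:129054001-129064800, with 1730 reads over 691, and 7.86 (7.24 to 8.54) at chr8:128969801-128984800, with 1752 over 863. The intervals of the first and second overlap, so their order is not settled by the counts.

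The other marks had their PVT1 maxima elsewhere in the gene. H3K27ac reached 7.08 (4.95 to 10.4) at chr8:128908001-128908800, from 180 reads over 37, and 5.18 (4.77 to 5.62) at chr8:128969201-128982400, from 2630 over 739. A further one, of 1200 bp at chr8:128898601-128899800, had 188 reads over 54 and a fold of 5.06 (3.72 to 6.99). The intervals of these H3K27ac islands overlap, so their order is not settled by the counts. The one at 5.18 overlapped the H3K122ac island of fold 7.86. H3K4me1 reached 5.998 (5.67 to 6.35) at chr8:128900601-128927200, from 5311 reads over 1525, the highest H3K4me1 fold of the whole interval. It was followed by 5.33 (4.95 to 5.74) and 4.67 (4.48 to 4.88) at chr8:128928001-128944200 and chr8:129038801-129083400. The longest H3K122ac island of MYC and PVT1, chr8:128908201-128927000, spanned 18800 bp within the first of these H3K4me1 islands. It held 2111 reads over 1054, with a fold of 7.75 (7.20 to 8.36).

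Near the end of PVT1 H3K27ac formed a very long island, chr8:129041401-129082000, of 40600 bp with 6995 reads over 2551 and a fold of 3.99 (3.81 to 4.17). Only 6 of the 173981 H3K27ac islands were longer. H3K4me1 covered nearly the same bases in its 44600 bp island. Over the bases of that H3K4me1 island, H3K122ac was split into 4 islands with folds of 1.94, 3.61, 9.69 and 4.37. The island at 1.94 ended before the long H3K27ac island began. The island at 9.69, described above, stood well above its neighbours.

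**Figure D3:**
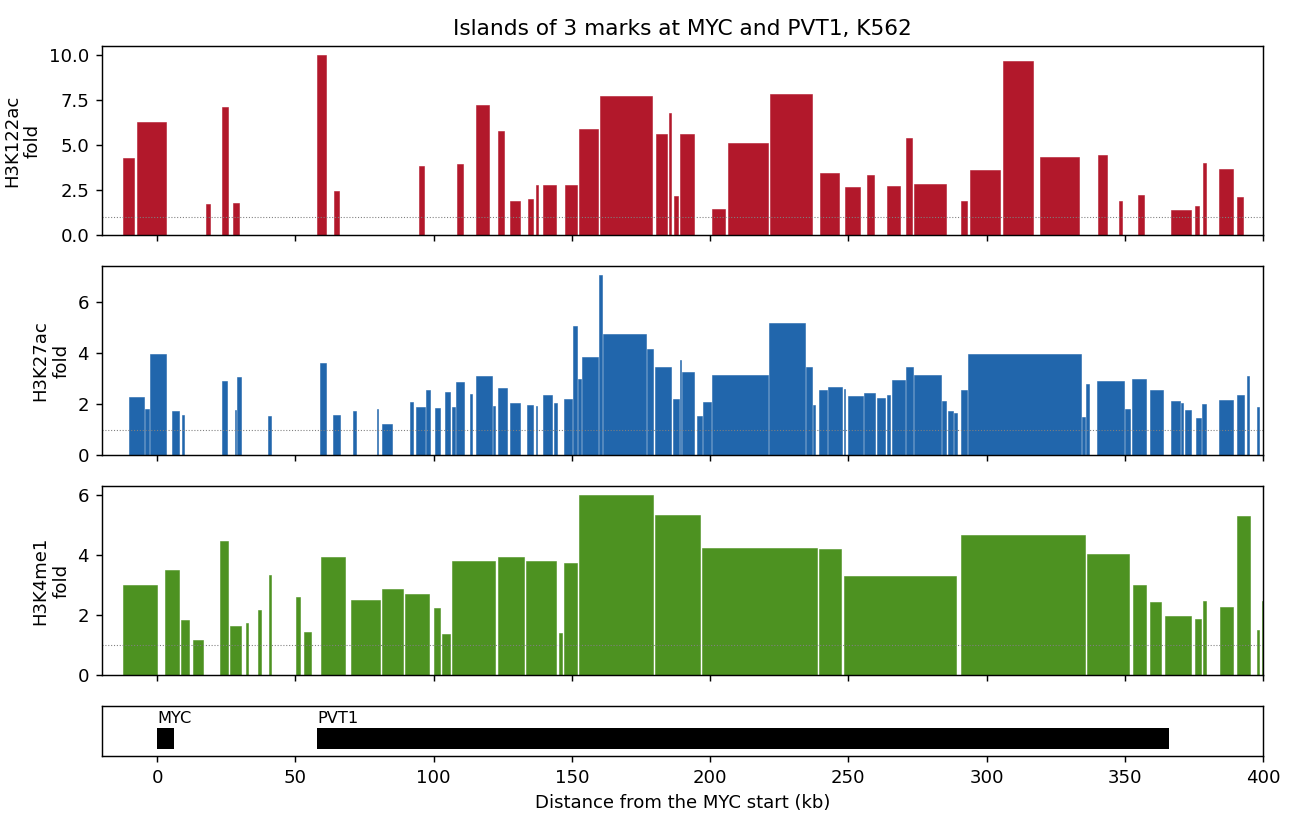
Islands of H3K122ac (top), H3K27ac (middle) and H3K4me1 (bottom) from 20 kb before to 400 kb after the MYC start, with fold over background as height. H3K4me1 leaves the first 3 kb of MYC bare, where H3K122ac has a fold of 6.33 and H3K27ac 3.97, and covers 92.6% of PVT1.

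In the distal block, the 3 H3K122ac islands with the most reads above background lay in 2 places. The largest, chr8:130688601-130715600, which began 1940.6 kb from the MYC start, spanned 27000 bp with 4568 reads over 1819 and a fold of 9.72 (9.21 to 10.3). By ChIP reads and by reads above background it was number 27 of the 72662 H3K122ac islands. H3K27ac had its longest downstream island at nearly the same bases, chr8:130690001-130717600, with 7141 reads over 1874 and a fold of 5.54 (5.27 to 5.83), number 11 of 173981 by reads above background. H3K4me1 there was part of a single island with 8536 reads over 2827 and a fold of 5.20 (4.98 to 5.43).

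The other place began 1831.4 kb from the MYC start. Among islands with at least 100 ChIP reads and 10 background reads, H3K27ac had its highest fold of the interval there, at chr8:130579401-130589600, with 2856 reads over 472 and a fold of 8.80 (7.98 to 9.72), higher than 99.0% of its list. Downstream of PVT1 it was followed, among such islands, by 6.67 (6.13 to 7.27) at chr8:130592401-130604400, with 2972 reads over 648, and, far outside the block, by 6.35 (5.44 to 7.44) at chr8:129567001-129570800. Below that read minimum, a fold of 12.1 rested on 50 reads over 6 in 1000 bp, and one of 6.41 on 97 over 22. H3K122ac had folds of 10.7 at chr8:130579801-130590400 and 8.37 at chr8:130592401-130609000. The H3K4me1 island chr8:130546201-130590600, which held the first of these, had a fold of 5.54 (5.28 to 5.81). H3K4me1 had its highest downstream fold, 5.76 (5.23 to 6.35), further toward MYC at chr8:130322201-130336400, with 1816 reads over 543. It had 5.59 (5.19 to 6.02) at chr8:130422201-130441600 and its longest island of the interval, 49200 bp, at chr8:130451001-130500200.

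**Figure D4:**
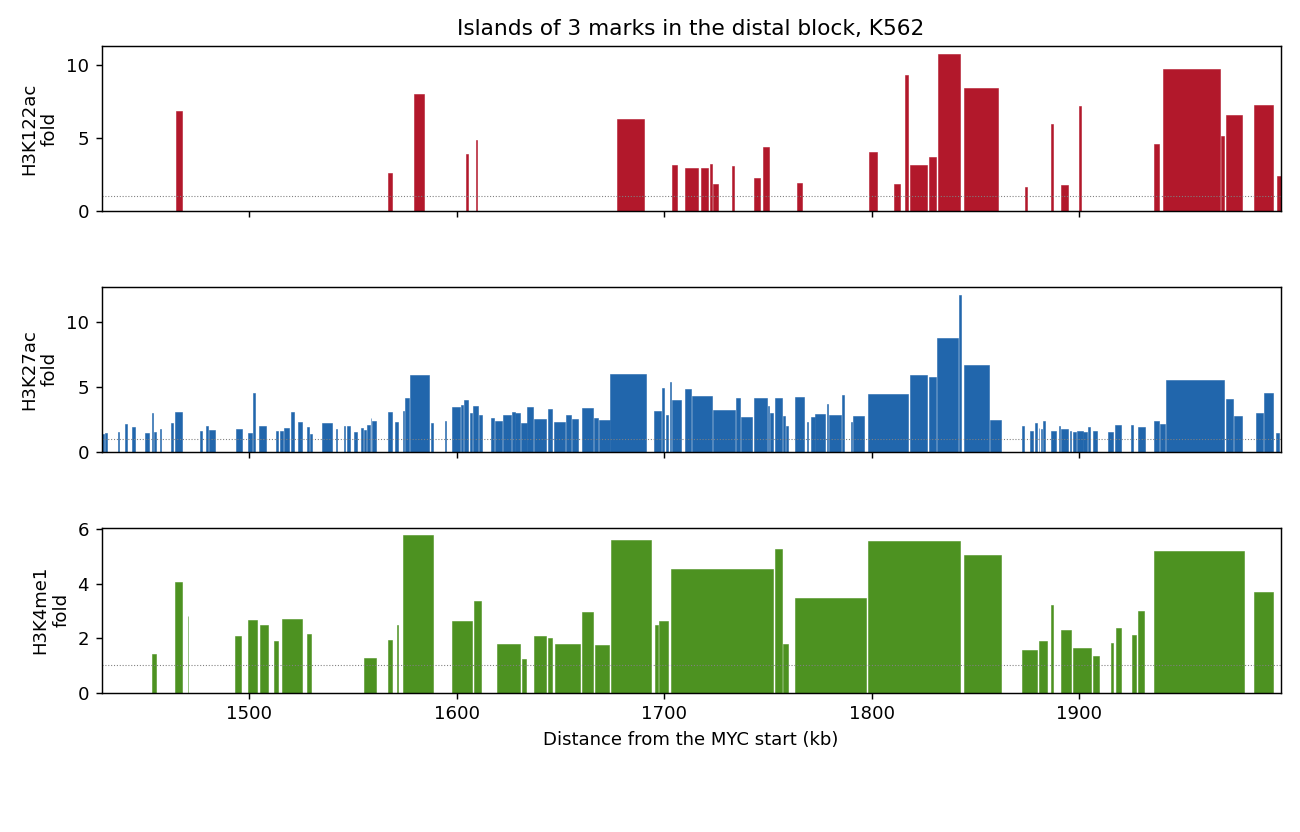
Islands of H3K122ac (top), H3K27ac (middle) and H3K4me1 (bottom) in the distal block, with fold over background as height, against distance from the MYC start in kb. H3K122ac has a fold of 10.7 at 1831.8 kb and 9.72 at 1940.6 to 1967.6 kb, while H3K27ac and H3K4me1 fill most of the span.

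The largest regions with all 3 marks ranked differently by mark. The region chr8:130683801-130727400 had the most H3K122ac reads above background, with folds of summed counts of 8.59 (8.20 to 8.996) for H3K122ac, 4.69 (4.50 to 4.90) for H3K27ac and 5.20 for H3K4me1. Next came 3 regions in PVT1, with H3K122ac folds of 5.58, 5.48 and 7.20 and H3K27ac folds of 3.49, 3.84 and 4.47. The fifth, chr8:130592401-130610400, had 8.37 (7.76 to 9.03), 5.06 (4.73 to 5.43) and 5.04 (4.70 to 5.41). The adjacent region chr8:130546201-130591200 had a higher H3K27ac fold, 5.81 (5.55 to 6.09), and a lower H3K122ac fold, 5.65 (5.29 to 6.03). This last region is named for that contrast, after its values were seen.

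Most H3K122ac islands of the interval met the other marks. H3K27ac was met by 104 of 113, 92.0% (85.4 to 96.3%), against 78.1% of the whole H3K122ac list, and H3K4me1 by 108 of 113, 95.6% (90.0 to 98.5%), against 85.8%. In the other direction, H3K122ac was met by 117 of 302 H3K27ac islands, 38.7% (33.2 to 44.5%), against 41.9%, and by 72 of 162 H3K4me1 islands, 44.4% (36.7 to 52.4%), against 54.2%. H3K27ac islands met H3K4me1 in 253 of 302 cases, 83.8% (79.1 to 87.7%), against 69.4%, and H3K4me1 islands met H3K27ac in 126 of 162, 77.8% (70.6 to 83.9%), against 70.0%. Coverage by each mark was also higher in the interval, and its part in these shares was not tested. H3K27ac islands that met H3K122ac had a median fold of 2.89 and those that did not 2.04, close to the whole list, at 2.89 and 2.06.

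Joined into regions, the islands gave 209 stretches. All 3 marks met 65 of these, 31.1% (24.9 to 37.9%), against 27.8% of the 162550 regions of the genome. H3K27ac and H3K4me1 without H3K122ac met 57, 27.3% (21.4 to 33.8%), against 15.8%. H3K27ac alone gave 46, 22.01%, against 29.9%, and H3K4me1 alone 32, 15.3%, against 15.5%. H3K122ac alone, or with 1 other mark, was rarer than in the genome, at 9 regions in all, 4.31% (1.99 to 8.02%), against 11.0%. By length the regions with all 3 marks made up 68.2% of the marked bases of the interval and 57.1% of those of the genome.

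The 9 H3K122ac islands without H3K27ac were weak, and 8 of them lay downstream of PVT1, as did 75 of all 113 H3K122ac islands. They held 27 to 83 reads, with a median fold of 2.36 and a range of 1.61 to 5.26, against a median of 3.67 for the 15878 such islands of the list. The 104 H3K122ac islands that met H3K27ac were also below their like in the list, with medians of 3.91 and 5.96. Among the 9, the highest fold was 5.26 at chr8:129295001-129296800, from 72 reads over 53, then 4.24 at chr8:129909201-129910800, from 58 over 53, and 3.15 at chr8:129799801-129801800, from 83 over 102. Folds of 2.43 and 2.36 followed at chr8:130159801-130160200, from 27 reads over 43, and chr8:129881801-129882800, from 39 over 64. H3K4me1 was met by 5 of the 9.

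The ratio of the H3K122ac fold to the H3K27ac fold varied across the interval, and its median was below that of the whole list. Whether both folds rose together was not tested. The comparison of these folds island by island was not planned in advance. Of the 104 H3K122ac islands that met H3K27ac, 30 had a fold below that of the H3K27ac islands they met, 28.8% (20.4 to 38.6%), against 8.23% of 56784 in the whole list. Several of the 104 met the same H3K27ac island, so they are not independent and this interval may be too narrow. The median log2 ratio of the H3K122ac fold to the H3K27ac fold was 0.58 in the interval, with a range of -1.27 to 2.17, and 1.05 in the whole list. A short H3K122ac island inside a long H3K27ac island is set beside the fold of the whole long island. Where each island covered at least 50% of the other, a condition added after seeing the data, the fold was lower for H3K122ac in 10 of 49 pairs of the interval, 20.4%, against 6.15% of the list.

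The low ratios lay in the long blocks. There 29 of 81 H3K122ac islands had the lower fold, with a median log2 ratio of 0.29. In the rest of the interval 1 of 23 did, with a median of 1.28. The condition above, that each island cover enough of the other, was not applied to the blocks and the rest separately. Whether this contrast holds over matched bases was thus not tested. At chr8:130566201-130574600 H3K122ac had a fold of 3.14 (350 reads over 431), while H3K27ac had 5.92 (1758 over 432) over nearly the same bases. At chr8:130575601-130578800 the folds were 3.67 and 5.74. These adjoin the island of H3K122ac fold 10.7 described above, so the relation of the marks differed between neighbouring islands. At the other extreme, chr8:130648001-130649000 had an H3K122ac fold of 7.20 beside an H3K27ac fold of 1.60, and chr8:130763801-130766800 10.3 beside 2.65. The H3K122ac islands there had 173 reads over 93 and 647 over 244. The H3K27ac islands they met had 249 over 227 and 587 over 322, so these folds are not over the same bases. The first lay in the distal block, with the highest log2 ratio of the interval, 2.17. These 4 H3K122ac islands were chosen after their values were seen.

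**Figure D5:**
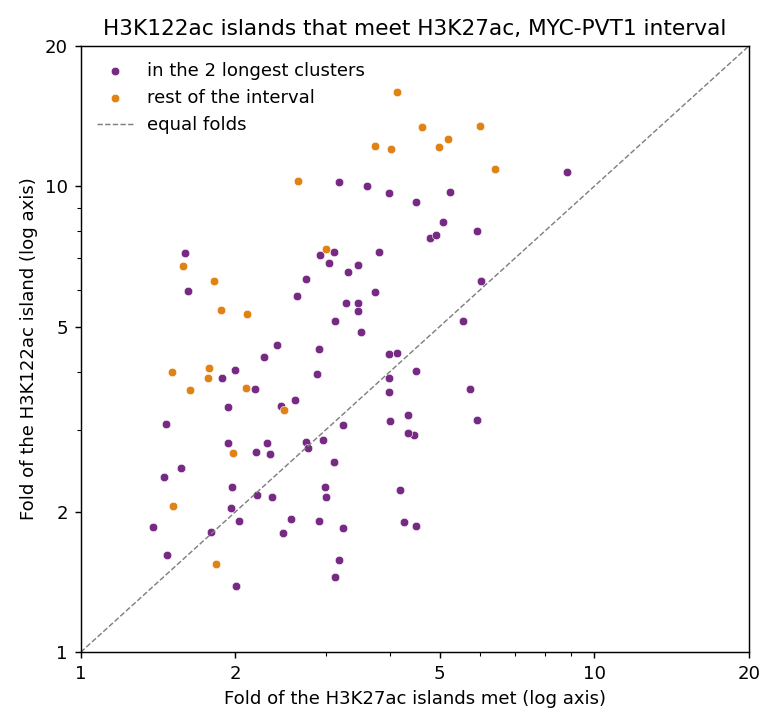
Fold of each of 104 H3K122ac islands against the fold of the summed H3K27ac islands it met, both on log axes. Points below the dashed line of equal folds number 29 of 81 in the 2 longest clusters and 1 of 23 in the rest of the interval.

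The highest H3K122ac folds belonged to islands outside the blocks. A fold of at least 10 was reached by 3 of 83 H3K122ac islands in the blocks and 9 of 30 in the rest of the interval. Such folds were common in the whole list. The lowest of them, 10.03, was number 16336 of its 72662 islands, higher than 77.5% of the list. The 9 were 800 to 6200 bp long. The median H3K122ac fold was 3.47 (2.93 to 4.29, n = 83) in the blocks and 4.75 (3.65 to 7.34, n = 30) in the rest, and these intervals overlap. For H3K27ac the order was the other way, at 2.34 (2.20 to 2.55, n = 220) in the blocks and 2.05 (1.87 to 2.32, n = 82) in the rest, with intervals that also overlap. H3K122ac islands had 61.5 background reads per kb in the blocks and 58.6 in the rest. The highest H3K122ac fold of all, 15.9 (11.8 to 21.9) at chr8:129355201-129356400, came from 222 reads over 54, 607.2 kb from the MYC start. It was followed by 13.5 (11.9 to 15.3) at chr8:130982401-130987600, from 1118 reads over 321, and 13.4 (9.65 to 19.0) at chr8:129836201-129837200, from 163 over 47.

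The 5 longest clusters downstream of PVT1 differed in how much of them each acetylation covered. Folds of summed counts are given for each, and since each mark's sum runs over its own islands, they compare no fixed set of bases. In the distal block they were 6.38 for H3K122ac, on 26.5% of the bases, and 3.63 for H3K27ac, on 64.2%. The cluster from 530.4 kb after the MYC start spanned 111.8 kb, with folds of 4.27 for H3K122ac and 1.81 for H3K27ac. At 791.8 kb, over 33.0 kb, the folds were 9.93 and 4.04, on 27.9% and 28.5% of the bases. At 2084.0 kb, over 51.4 kb, they were 8.28 and 2.04, on 5.45% and 31.9%. At 2146.4 kb, over 107.6 kb, they were 12.9 and 2.73, on 8.92% and 52.8%. This cluster ran to the end of the interval, and regions beyond it were not joined, so its length and sums may be cut short. In this last cluster H3K122ac had 3 islands, with folds of 10.9, 12.0 and 13.5, and the H3K27ac islands they met had folds of 6.41, 4.03 and 5.99, each above the H3K27ac fold of the whole cluster.

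Where 2 lists had an island with the same start and end, the background count was the same too, so the ChIP reads can be set side by side. There were 7 such pairs of H3K122ac and H3K27ac, 4 of H3K122ac and H3K4me1 and 4 of H3K27ac and H3K4me1. A single stretch, chr8:130832001-130832800, had the same ends in all 3 lists, with 47 background reads. It held 148 H3K122ac reads, 121 H3K27ac reads and 91 H3K4me1 reads, which are folds of 12.2, 3.74 and 3.33. At chr8:129355201-129356400 H3K122ac had 222 reads and H3K27ac 153 over 54. At chr8:130043801-130045600 they had 306 and 336 over 94, folds of 12.6 and 5.20. The H3K122ac fold was the higher in each of the 7 pairs with H3K27ac, by 0.29 to 1.95 on the log2 scale with a median of 0.82, against a median of 1.17 over 5183 such pairs of the genome. Against H3K4me1 the median was 1.42, and 0.81 over 4024 pairs.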

How the data were processed

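Native chromatin immunoprecipitation was sequenced from K562, with 1 library per mark and 1 of input. Bowtie 0.12.8, HOMER 4.3 and SICER 1.1 were used, per the submitters' processing notes, on build hg19, with no role stated for any of them. Per the labels of the lists, windows were 200 bp, the false discovery rate was 0.01, and gaps inside an island were up to 600 bp for H3K122ac and H3K4me1 and 200 bp for H3K27ac. H3K27ac islands are therefore split more finely, which raises their number.

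The authors deposited, for each island, whole-number ChIP and background read counts, not normalized. They also deposited a p-value and a q-value against background, of which the q-value was used in an alternative. The authors' fold is the ChIP count over the background count, scaled by 1 library ratio per list. That ratio was constant within each list when recomputed, with a background count of 0 entered as 0.25. Wherever 2 lists had an island with the same start and end, the background counts were equal, so the lists share a background library. Which library it was is not stated in those sources. Each library ratio divides out depth but not antibody efficiency, so a fold in one list is no absolute amount of the mark.

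Coordinates are 1-based. Marks met where islands shared at least 1 bp. Shares carry exact (Clopper-Pearson) 95% intervals, medians binomial order-statistic intervals, and folds the exact conditional interval of a ratio of 2 Poisson counts. Fold intervals cover counting error only, and PCR reads are not independent molecules. Intervals of shares and medians treat the islands of a library as independent draws, which neighbouring islands need not be. Reads above background are the ChIP count over the library ratio minus the background count. Named islands were every one on MYC, the 3 of highest fold and the longest per mark and part of the interval (at least 100 reads, 10 background reads for the folds), the 5 largest regions with all 3 marks, and the 5 longest clusters downstream of PVT1. They also included the 5 strongest H3K122ac islands without H3K27ac. The interval and these rules were chosen with earlier results of these data known. Interval code was tested on simulated data with Python 3.11.15, pandas 2.3.3 and SciPy 1.17.1.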

Additional observations from a re-analysis of the deposited data

How the results depend on the processing

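Each value rests on 1 library per mark, and H3K122ac was the shallowest, so weak H3K122ac may have gone uncalled. No paired analysis was possible because each K562 mark has 1 library and no test was made. The 20 summary values were recomputed under 66 alternatives, of which 44 stayed within the interval of the reported value or, for counts and coverage, within 1.5 times it. The others were as follows. With q-values of at most 1e-10, median folds were 4.9997 for H3K122ac, 2.87 for H3K27ac and 2.83 for H3K4me1, and 84.5%, 42.1% and 44.3% of islands reached a fold of 3. The H3K27ac islands then numbered 178, and H3K122ac was met by 46.6% and H3K4me1 by 90.4% of them. With that limit on the H3K122ac list only, 19.8% of H3K122ac islands had a fold below H3K27ac, an alternative added after seeing the data. H3K27ac islands numbered 179 when joined across 600 bp. Islands with a fold of 3 or more covered 16.6% of bases for H3K27ac and 24.7% for H3K4me1. With such a fold required in the second list, H3K122ac islands met H3K27ac in 49.6% and H3K4me1 in 66.4%, H3K27ac islands met H3K122ac in 26.8% and H3K4me1 in 41.1%, and H3K4me1 islands met H3K122ac in 32.7% and H3K27ac in 30.2%. With 50% of the island covered, H3K4me1 islands met H3K122ac in 29.0% and H3K27ac in 66.0%. Within 1000 bp, 45.7% of H3K27ac islands met H3K122ac. Whole-list values under these alternatives are not given, so the values here cannot be set against the list shares above. The cause of these shifts was not tested.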
